A study of Homo sapiens with 6 samples.

Results

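TRMT112 encodes a small zinc-binding protein with no catalytic activity of its own that binds and stabilises a set of methyltransferases, and TRMT112 and the 7 partner genes are described here in Rh30 cells with and without knockdown of DDX5. The 8 genes were given by name, and all 8 were found among the 35580 genes joined to the deposited tables and among the 15223 genes tested. They had been picked with the siDDX5 against control result already known, so all values of that comparison are given as descriptions of these libraries and not as tests of the group. Rh30 is an alveolar rhabdomyosarcoma cell line, of muscle lineage and positive for the PAX3-FOXO1 fusion. Messenger RNA was sequenced from 3 control and 3 siDDX5 libraries, labelled as replicates 1 to 3 of each group. Every library therefore comes from 1 fusion-positive line, and the labels do not describe the control reagent, the sequence of the silencing RNA or the time after transfection. The series' design text calls the replicates biological, and the p-values measure the spread between these libraries.

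TRMT112 works as a shared subunit. In the ribosome pathway it pairs with BUD23, which methylates a guanosine of 18S rRNA, and with METTL5, which places N6-methyladenosine on 18S rRNA. Its RNA partners outside the ribosome are TRMT11 and THUMPD3, which methylate guanosines of tRNA, THUMPD2, which methylates U6 small nuclear RNA, and ALKBH8, which methylates the wobble uridine of some tRNAs. N6AMT1 differs from the others in acting on a protein, the translation termination factor eRF1. The partners are known to need TRMT112 for their stability or activity.

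TRMT112 (ENSG00000173113.6) is a minus-strand gene of chromosome 11 (GRCh38, 64316460 to 64318084). GENCODE places its start at 64318084, only 4 bases from the start of PRDX5 at 64318088 on the plus strand. PRDX5 encodes peroxiredoxin 5, an antioxidant enzyme. RefSeq (GRCh38.p14) gives TRMT112 starts at 64317990 and 64317559. The windows from 250 bases before to 50 bases after each RefSeq start are shown because the 2 genes face each other here. Transcripts in the values that follow are grouped by GENCODE start. The GENCODE start at 64318084 lies inside the upstream window but not at its RefSeq start. Capitals mark the ETS core CCGGAA and the octamer ATTTGCAT on either strand, and the sequences are read on the minus strand, 5′ to 3′.
TRMT112 upstream window, chr11:64317941-64318240: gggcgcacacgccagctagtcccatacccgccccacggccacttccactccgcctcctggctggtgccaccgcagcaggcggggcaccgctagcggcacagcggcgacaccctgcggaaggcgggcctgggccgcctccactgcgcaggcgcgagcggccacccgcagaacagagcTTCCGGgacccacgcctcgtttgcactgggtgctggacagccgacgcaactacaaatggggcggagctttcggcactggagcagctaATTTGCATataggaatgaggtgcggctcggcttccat
TRMT112 downstream window, chr11:64317510-64317809: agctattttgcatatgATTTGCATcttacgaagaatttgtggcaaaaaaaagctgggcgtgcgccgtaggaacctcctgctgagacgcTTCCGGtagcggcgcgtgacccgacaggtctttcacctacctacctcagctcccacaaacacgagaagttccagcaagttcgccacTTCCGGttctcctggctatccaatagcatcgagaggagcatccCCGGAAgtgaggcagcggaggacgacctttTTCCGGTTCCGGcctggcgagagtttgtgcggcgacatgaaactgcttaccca
The downstream window held 5 matches to CCGGAA on the 2 strands together, and the upstream window held 1. Among 35116 windows of 300 bases, 17.2% held at least 1 match and 0.316% held 4 or more. ATTTGCAT occurred once in each TRMT112 window and in 1.77% of all windows. The 2 TRMT112 windows do not overlap, whereas the upstream window shares bases with both RefSeq windows of PRDX5 (64317871 to 64318170 and 64318036 to 64318335). GGGCGG, the SP1 box, had 2 matches in the upstream and 0 in the downstream window, against 45.0% of all windows with at least 1. These matches are counts of letters and say nothing about binding. Windows were found for 6 of the 8 genes, all but N6AMT1 and THUMPD2.

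The libraries held between 18202402 and 26156858 estimated counts, with 18202402 to 19971888 in the siDDX5 and 21265569 to 26156858 in the control group, and the part of this depth gap in the results was not tested. DDX5, the targeted DEAD-box RNA helicase, went from 1137 to 1434 CPM (estimated counts scaled by the TMM-adjusted library size) in control to 396 to 549 CPM in siDDX5 libraries, with no overlap. All 9 markers of the rhabdomyosarcoma line, PAX3, FOXO1 and MYOD1 among them, were at 1 TPM or more in each library. Their summed level was 1189 to 1517 TPM in control and 1143 to 1217 TPM in siDDX5 libraries. Markers of leukocytes, epithelial, endothelial and liver cells summed to at most 7.27 TPM per cell type in any library, and CD3E, EPCAM, KRT5, KRT19, VWF, CDH5, ALB and APOA1 stayed under 1 TPM throughout. Same-numbered libraries deviated together, with correlations of 0.23, 0.32 and 0.66 across genes for replicates 1, 2 and 3, so fits with the replicate number as a block are given where they change a call or a count.

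TRMT112 mRNA was lower in every siDDX5 library. Per length, it stood at 116, 124 and 108 TPM in control replicates 1, 2 and 3, and at 57.2, 69.4 and 63.8 TPM in siDDX5 replicates 1, 2 and 3. The group means were 116 ± 7.61 and 63.4 ± 6.08 TPM (SD, n = 3 each). On the scale used for the fit, the control libraries had 62.4, 62.6 and 55.0 CPM and the siDDX5 libraries 27.5, 37.1 and 32.2 CPM. The lowest control library was above the highest siDDX5 library on both scales. In such bulk libraries, fewer cells of a type and less RNA per cell cannot be told apart. The log2 fold change was -0.90 (SE 0.13, 95% interval -1.19 to -0.60), a 1.86-fold lower level, with an adjusted p of 0.0422 in edgeR's quasi-likelihood test over all genes. That fit leaves out the replicate number, and the adjusted p was 0.00711 in edgeR with the replicate block. Within the same-numbered pairs, the control was 2.27, 1.69 and 1.71 times the siDDX5 library.

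Of the 8 genes, 1 had an adjusted p under 0.05, TRMT112, and it was lower. Over all 15223 genes, 0.164% passed in either direction, 0.112% lower and 0.0526% higher, and nothing is read from the share because the genes were picked on this comparison. TRMT112 ranked 82 from the lowest fold change, with 0.532% of genes tested below it. The call was lost in each of the 6 fits that left out a library, all without the replicate block. There the adjusted p was 0.227, 0.122 and 0.0529 without control replicate 1, 2 and 3, and 0.112, 0.0633 and 0.162 without siDDX5 replicate 1, 2 and 3. It was also lost with counts from length-scaled TPM (log2 fold change -0.81, adjusted p 0.15) and with limma-trend, at -0.86 (adjusted p 0.0807) for a pseudocount of 1 TPM and -0.87 (0.0893) for 0.1 TPM, while the sign was negative in all 15 alternatives.

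**Figure D1:**
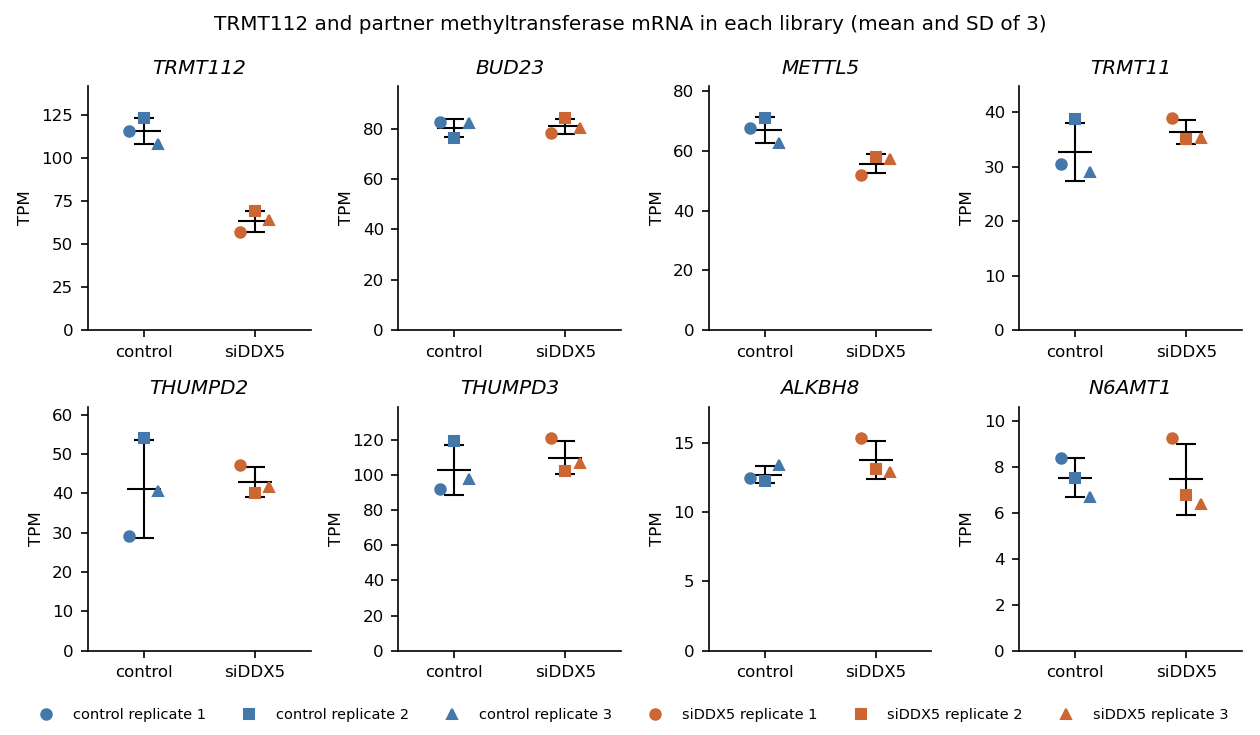
TPM of TRMT112 and its 7 partners in each library, each panel with its own y axis from 0, with points for the replicates and black bars for the mean and SD of 3. TRMT112 falls from 108 to 124 TPM in control to 57.2 to 69.4 TPM in siDDX5. METTL5 is the other gene whose TPM ranges do not overlap, though its CPM ranges do. The share of all genes without overlap in TPM was not computed.

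By edgeR's quasi-likelihood fit, 0 of the 7 partners were called, and 0 reached an unadjusted p of 0.05. DESeq2 gave 0 and 0, limma-trend gave 0 and 1 at either pseudocount, and edgeR with the replicate block gave 0 and 2. The share of all genes at an unadjusted p under 0.05 was 11.4% in edgeR, 20.5% with the block, 10.8% in DESeq2, and 8.56% and 8.42% in limma-trend with a pseudocount of 1 and 0.1 TPM. With the block, 1 of the 8 genes was called, again TRMT112, against 2.6% of all genes (1.46% lower and 1.14% higher). The median log2 fold change of the 7 partners was 0.11, and that of all genes tested was 0.00. Values above 0 were found for 5 of them and below 0 for METTL5 and N6AMT1, although BUD23 turned negative in 1 fit without a library and N6AMT1 turned positive in 4 alternatives. The lower ends of their 95% intervals ran from -0.57 (METTL5) to -0.06 (THUMPD3) and the upper ends from 0.06 (METTL5) to 0.51 (TRMT11). No partner's interval reached down to the upper end of the TRMT112 interval, -0.60. Whether the change of TRMT112 differed from that of a partner was not tested.

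**Figure D2:**
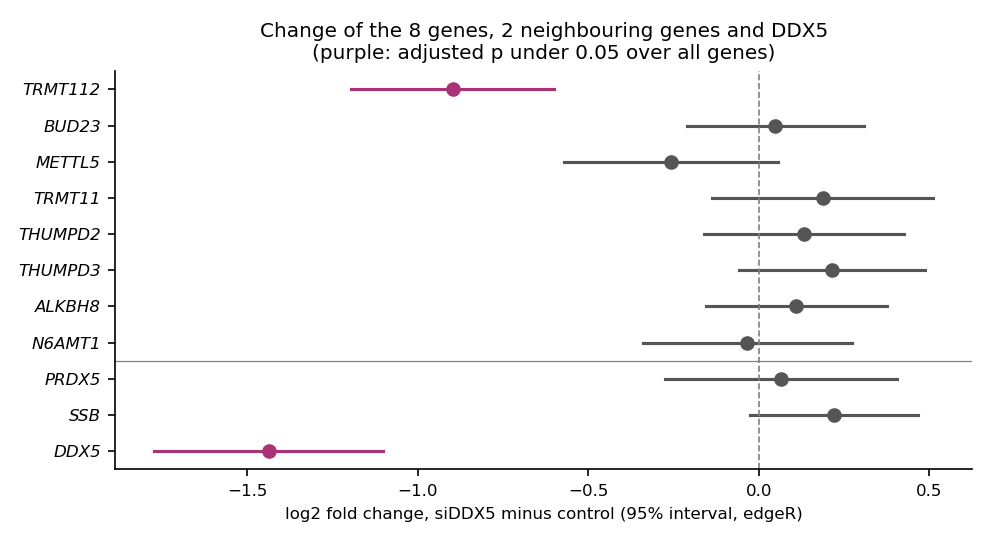
Log2 fold changes (siDDX5 minus control, x axis) of the 8 genes above the line, and of PRDX5, SSB and DDX5 below it, with edgeR 95% intervals. TRMT112 (-0.90) and DDX5 (-1.44) lie left of 0 with their whole intervals, and the intervals of the 7 partners, PRDX5 and SSB include 0.

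Both 18S rRNA methyltransferases were examined first among the partners. BUD23 (chromosome 7, 73683025 to 73705161, plus strand) had 82.7, 76.4 and 82.2 TPM in control replicates 1, 2 and 3 and 78.5, 84.4 and 80.4 TPM in the siDDX5 libraries. Its groups overlapped, with a log2 fold change of 0.05 (SE 0.12, adjusted p 0.907 in edgeR) and a 95% interval of 0.865-fold to 1.24-fold. METTL5 (chromosome 2, 169810081 to 169824931, minus strand) had 67.6, 71.1 and 62.5 TPM in control and 52.1, 57.8 and 57.2 TPM in siDDX5 replicates 1, 2 and 3. All 3 siDDX5 libraries lay below all 3 control libraries in TPM, whereas in CPM the highest siDDX5 library (18.4) was above the lowest control library (17.8). The log2 fold change of METTL5 was -0.26 (SE 0.14, adjusted p 0.525 in edgeR; 0.234 with the replicate block), and it was negative in all 15 alternatives, from -0.35 to -0.17. By CPM, 1 of the 8 genes had groups that did not overlap with siDDX5 lower, TRMT112, and 9.16% of all genes did. By outermost annotated ends, METTL5 overlaps SSB, which encodes the La RNA-binding protein, by 1984 bases on the opposite strand. The main METTL5 transcripts, ENST00000392640.6 and ENST00000409965.5, end at 169811757, and SSB ends at 169812064. These transcripts therefore share only part of that stretch with SSB. SSB had 119 to 147 CPM in control and 147 to 161 CPM in siDDX5 libraries, and its log2 fold change of 0.22 (edgeR adjusted p 0.491) had the opposite sign to that of METTL5. The library kit marks strand, per the labels, but whether strand was used in the counting is not given in the sources used here, so reads of the 2 genes may not be fully separated.

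The 2 tRNA guanosine methyltransferases had slightly higher means in siDDX5 libraries, within their spread. TRMT11 (chromosome 6, 125986430 to 126203817, plus strand) had 30.5, 38.8 and 28.99 TPM in control and 39.0, 35.2 and 35.3 TPM in siDDX5 replicates 1, 2 and 3. Control replicate 2 lay among the siDDX5 values, giving a log2 fold change of 0.19 (SE 0.14, adjusted p 0.662 in edgeR). THUMPD3 (chromosome 3, 9362842 to 9386791, plus strand) had 92.3, 119 and 97.5 TPM in control and 121, 102 and 107 TPM in siDDX5 libraries. Its log2 fold change was the highest of the 8 at 0.22 (SE 0.12, adjusted p 0.538 in edgeR; 0.204 with the replicate block), and the groups overlapped. The antisense gene THUMPD3-AS1, annotated over the whole of THUMPD3, was not analysed here.

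THUMPD2 (chromosome 2, 39736060 to 39779267, minus strand), the U6 snRNA enzyme, had the widest control spread of the 8 in TPM relative to its mean, though not in CPM. It had 29.1, 54.0 and 40.5 TPM in control replicates 1, 2 and 3 and 47.3, 40.1 and 41.6 TPM in siDDX5 libraries. Part of that spread lay in ENST00000527689.1, a retained-intron transcript of 210 bases singled out after its values were seen. It was at 1.57, 17.2 and 3.73 TPM in control replicates 1, 2 and 3 and at 11.3, 5.93 and 4.75 TPM in the siDDX5 libraries. In CPM, where a short fragment carries less weight, THUMPD2 had 24.7, 32.1 and 27.0 in control and 28.7, 31.9 and 31.2 in siDDX5 libraries. The groups overlapped, at a log2 fold change of 0.13 (SE 0.13, adjusted p 0.75 in edgeR).

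ALKBH8 and N6AMT1 were the least abundant of the group. ALKBH8 (chromosome 11, 107502726 to 107565746, minus strand) had 12.5, 12.2 and 13.4 TPM in control and 15.3, 13.1 and 12.9 TPM in siDDX5 replicates 1, 2 and 3. By TPM, siDDX5 replicate 1 alone exceeded all control libraries. By CPM, the scale of the fit, replicates 1 and 2 did (26.5 and 23.6 against at most 23.1), with a log2 fold change of 0.11 (SE 0.12, adjusted p 0.771 in edgeR). N6AMT1 (chromosome 21, 28872191 to 28885371, minus strand) had 8.37, 7.50 and 6.67 TPM in control and 9.23, 6.77 and 6.38 TPM in siDDX5 libraries. The replicate 1 library was the highest in both groups and the replicate 3 library the lowest, at a log2 fold change of -0.03 (SE 0.14, adjusted p 0.955 in edgeR). The lowest count of any of the 8 was 291, for METTL5 in siDDX5 replicate 1, so none of the 8 genes was near the limit of 3 counts (0.115 to 0.165 CPM).

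**Figure D3:**
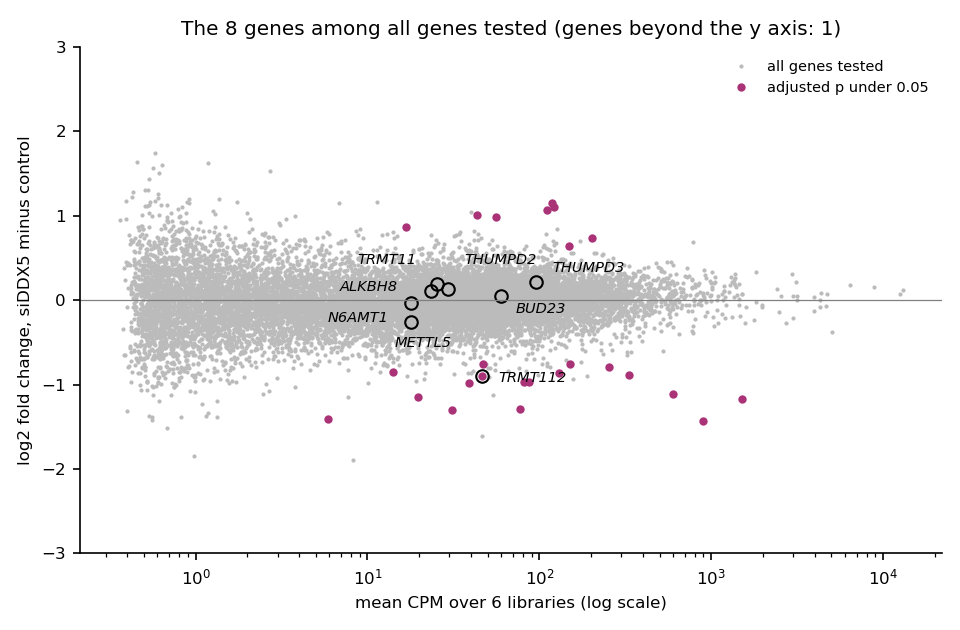
Mean CPM over the 6 libraries (x axis, log scale) against the log2 fold change (y axis, siDDX5 minus control) for 15223 genes, with the 25 called genes in purple and the 8 named genes circled (1 gene lies beyond the axis). TRMT112 lies at -0.90 among the called genes, and the 7 partners lie between -0.26 and 0.22 inside the bulk of genes.

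Set in order of TPM, the levels of the 8 mRNAs spanned more than 10-fold. In control cells TRMT112 was the most abundant at 116 ± 7.61 TPM, followed by THUMPD3 at 103 ± 14.3 TPM (SD, n = 3 each), and their ranges overlapped. BUD23 (80.4 ± 3.45), METTL5 (67.1 ± 4.31), THUMPD2 (41.2 ± 12.4) and TRMT11 (32.8 ± 5.3 TPM) came next, and of these neighbours THUMPD2 and TRMT11 overlapped. ALKBH8 (12.7 ± 0.593 TPM) and N6AMT1 (7.52 ± 0.853 TPM) were separate from each other and from the rest. In siDDX5 cells TRMT112 took the third place at 63.4 ± 6.08 TPM, below THUMPD3 (110.0 ± 9.64) and BUD23 (81.1 ± 3.02 TPM). There its range overlapped with none of those above it but did overlap with that of METTL5 (55.7 ± 3.14 TPM). The order of the other 7 genes was the same in both groups. These levels sum all annotated transcripts of a gene. On protein-coding transcripts alone, THUMPD3 had 74.4 ± 9.59 TPM and TRMT112 114 ± 5.69 TPM in control (SD, n = 3 each), without overlap. In siDDX5 cells they had 84.3 ± 6.91 and 60.2 ± 4.51 TPM (SD, n = 3 each).

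The summed TPM of the 7 partners hardly differed between groups, while TRMT112 per partner mRNA was lower in siDDX5 cells. Summed partner levels were 323, 379 and 332 TPM in control and 362, 340 and 340 TPM in siDDX5 replicates 1, 2 and 3. TRMT112 divided by this sum was 0.358, 0.326 and 0.327 in control libraries and 0.158, 0.204 and 0.187 in siDDX5 libraries. The means were 0.337 ± 0.0185 and 0.183 ± 0.0234 (SD, n = 3 each), with no overlap. Computed from CPM per kilobase of mean effective length, the ratio was 0.373 ± 0.0278 in control and 0.189 ± 0.018 in siDDX5 libraries (SD, n = 3 each). Because the partner sum hardly differed, the lower ratio restates the fall of TRMT112 and is not a separate result. These are ratios of mRNA, and no protein was measured.

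**Figure D4:**
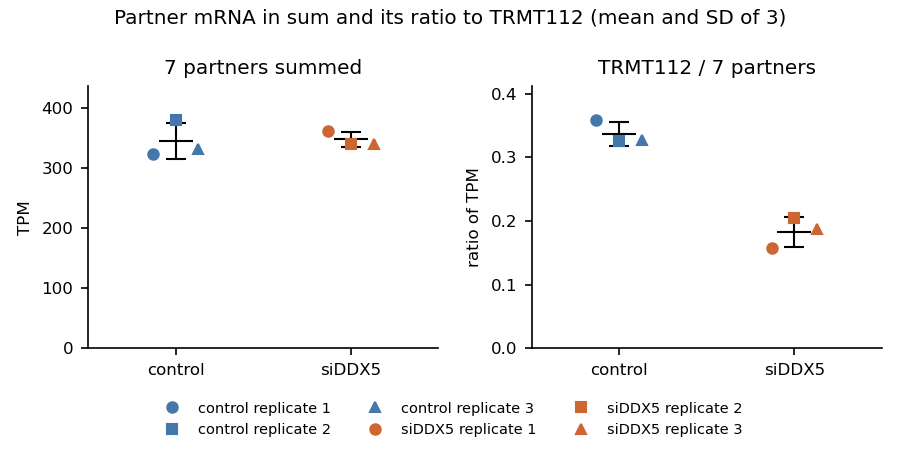
Summed TPM of the 7 partners (left, y axis in TPM) and TRMT112 divided by that sum (right, ratio of TPM) in each library, with the mean and SD of 3. The sums overlap at 323 to 379 and 340 to 362 TPM, and the ratio is 0.326 to 0.358 in control against 0.158 to 0.204 in siDDX5. With similar sums, the ratio restates the fall of TRMT112.

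The fall of TRMT112 was seen in transcripts from both of its annotated start regions. ENST00000544844.5, a 4-exon protein-coding transcript of 1106 bases from the upstream start at 64318084, was at 67.5, 64.7 and 59.6 TPM in control and 28.7, 33.4 and 33.7 TPM in siDDX5 replicates 1, 2 and 3. The 5 transcripts that start further downstream were at 48.2, 58.9 and 48.8 TPM in sum in control and 28.5, 36.0 and 30.1 TPM in siDDX5 libraries. In neither start region did the groups overlap in TPM, and the share of all transcripts without overlap was not computed. Of the 5 downstream transcripts, ENST00000539854.1, a 3-exon protein-coding transcript of 659 bases, had 36.1 ± 1.29 TPM in control and 19.3 ± 2.53 TPM in siDDX5 libraries (SD, n = 3 each). The upstream transcript made up 72.2% ± 2.27 of the TRMT112 counts in control and 68.2% ± 1.58 in siDDX5 libraries (SD, n = 3 each). No change of transcript usage was called for TRMT112 (edgeR diffSpliceDGE, Simes adjusted p 1; 0.697 with the replicate block). The assignment of reads to overlapping transcripts was an estimate of the authors' quantifier, and the tables hold no error for it.

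PRDX5, 4 bases from the upstream start, had overlapping groups. It stood at 264, 217 and 234 TPM in control and 217, 280 and 230 TPM in siDDX5 replicates 1, 2 and 3. Its log2 fold change was 0.07 (SE 0.15, 95% interval 0.826-fold to 1.32-fold, edgeR adjusted p 0.906), and it turned negative in 2 fits without a library. On the other side, TRMT112 overlaps the end of ESRRA, which encodes a nuclear receptor, by 284 bases on the opposite strand. That extent comes from ENST00000535750.5, whereas ENST00000544844.5 ends at 64316691, with the end of ESRRA at 64316743. ESRRA had 17.5 to 23.6 CPM in control and 16.1 to 24.7 CPM in siDDX5 libraries, a log2 fold change of 0.04 (edgeR adjusted p 0.957). The other partners with a protein-coding gene starting within 1 kb on the opposite strand were BUD23 and THUMPD3. DNAJC30, whose start lies 428 bases from that of BUD23, had a log2 fold change of -0.18 (edgeR adjusted p 0.838), and SRGAP3, 211 bases from THUMPD3, had 0.27 (0.75). DNAJC30 turned positive in 1 fit without a library. By outermost annotated ends, BUD23 also overlaps STX1A, which encodes a syntaxin, by 5956 bases on the opposite strand, and DNAJC30 by 429 bases. The first is the longest overlap of one of the 8 with a tested gene. The main BUD23 transcript, ENST00000265758.6 (73683568 to 73698212), reaches neither STX1A, which ends at 73699206, nor DNAJC30, which starts at 73683453. The BUD23 end comes from ENST00000436944.5 (0.375 TPM in control), and its start from ENST00000464615.1 (0.283 TPM in control). STX1A had 6.11 to 8.25 CPM in control and 5.63 to 8.47 CPM in siDDX5 libraries (log2 fold change -0.08, edgeR adjusted p 0.921). Where STX1A and BUD23 transcripts do overlap, the reads may not be fully separated, as with METTL5 and SSB.

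**Figure D5:**
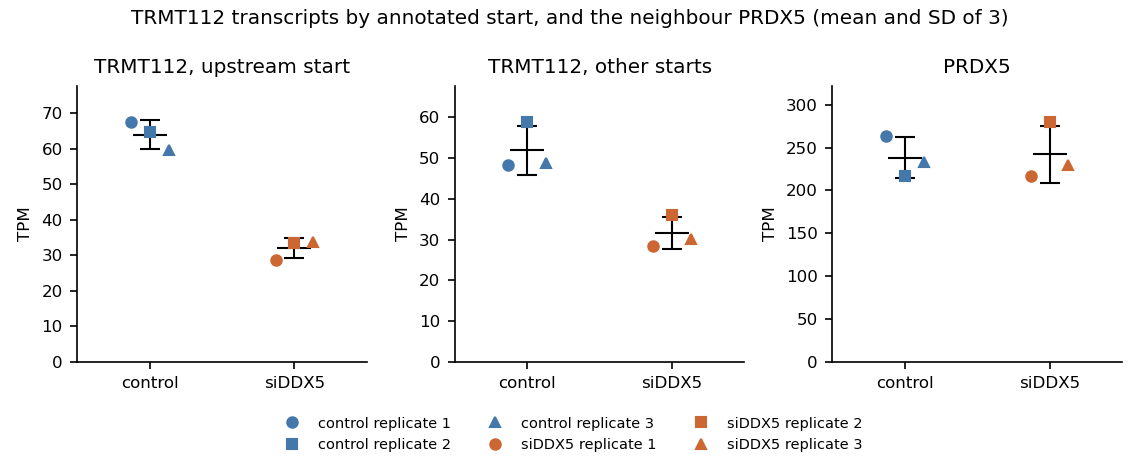
TPM (y axis, from 0) of the TRMT112 transcript with the upstream start, of the 5 other TRMT112 transcripts in sum, and of PRDX5 in each library, with the mean and SD of 3. Both TRMT112 panels separate the groups, and PRDX5 overlaps between 217 and 264 TPM in control and 217 and 280 TPM in siDDX5.

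Transcript make-up was also compared for the partners. The share of TPM on protein-coding transcripts in control libraries was 98.1% ± 2.26 for TRMT112, 93.4% ± 2.52 for METTL5, 86.6% ± 0.796 for ALKBH8 and 84.5% ± 3.31 for BUD23 (SD, n = 3 each). It was 81.7% ± 5.86 for N6AMT1, 72.3% ± 1.08 for THUMPD3, 68.3% ± 10.1 for TRMT11 and 25.6% ± 5.57 for THUMPD2 (SD, n = 3 each). THUMPD2 therefore held most of its signal on transcripts annotated as nonsense-mediated decay or retained intron. Its single protein-coding transcript, ENST00000505747.6, was at 9.18, 11.0 and 10.004 TPM in control and 11.7, 10.9 and 15.04 TPM in siDDX5 replicates 1, 2 and 3, and the nonsense-mediated decay transcript ENST00000378727.8 was at 8.72 ± 1.53 and 8.88 ± 1.67 TPM (SD, n = 3 each). Counted on coding transcripts alone, THUMPD2 would stand at 10.1 ± 0.933 TPM in control, near ALKBH8 at 11.0 ± 0.547 TPM (SD, n = 3 each). In THUMPD3 the coding share was 72.1%, 71.3% and 73.4% in control and 76.2%, 76.9% and 77.0% in siDDX5 libraries, higher without overlap. In ALKBH8 it was 85.7%, 87.1% and 87.0% in control and 85.3%, 75.6% and 80.8% in siDDX5 libraries, lower without overlap. The coding TPM of ALKBH8 did not fall with it, at 11.0 ± 0.547 in control and 11.1 ± 1.69 in siDDX5 libraries (SD, n = 3 each). Over 11681 tested genes with both classes of transcript, 7.53% lay higher and 3.71% lower without overlap. In these shares of TPM, short transcripts weigh more than in counts. ENST00000530933.1 of ALKBH8 (594 bases) had 0.53 and 1.89 TPM in control and siDDX5, but 0.488% and 1.68% of counts. ENST00000464045.1 of THUMPD3 (601 bases) had 19.0 and 13.4 TPM, but 4.35% and 2.71% of counts. ENST00000393100.3 of ALKBH8 and ENST00000484006.1 of THUMPD3 went the other way in TPM. All were singled out after their values were seen.

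METTL5 was carried by 2 protein-coding transcripts of 8 exons. ENST00000392640.6 was at 30.1 ± 2.76 TPM in control and 28.4 ± 4.26 TPM in siDDX5 cells, and ENST00000409965.5 at 25.1 ± 2.77 and 19.8 ± 4.79 TPM (SD, n = 3 each), and both overlapped between groups. BUD23 rested on ENST00000265758.6, with 72.1% ± 3.19 of its counts in control and 73.5% ± 1.23 in siDDX5 libraries (SD, n = 3 each). For ALKBH8, ENST00000428149.6 held 89.0% ± 3.04 and 93.0% ± 1.17 of the counts, and for TRMT11, ENST00000334379.11 held 68.3% ± 6.63 and 73.0% ± 6.39 (SD, n = 3 each). N6AMT1 counts were split between ENST00000303775.10 and ENST00000351429.7, and the first held 62.7% ± 23.8 in control and 70.1% ± 6.18 in siDDX5 libraries (SD, n = 3 each). THUMPD3 counts were spread over several protein-coding transcripts, led by ENST00000345094.7 (35.9% ± 5.53 in control, 39.7% ± 5.49 in siDDX5), ENST00000452837.7 (30.9% ± 4.36 and 29.6% ± 4.96) and ENST00000515662.6 (16.6% ± 2.63 and 15.7% ± 3.63; SD, n = 3 each). By TPM its most abundant was the short ENST00000441127.5, at 23.5 ± 4.28 and 27.99 ± 5.14 TPM (SD, n = 3 each). Other transcripts not annotated as protein-coding with over 10% of the counts in control were ENST00000460072.5 of THUMPD2 (22.0% ± 4.99), ENST00000479748.5 of TRMT11 (15.4% ± 5.77) and ENST00000471215.1 of BUD23 (11.98% ± 1.77; SD, n = 3 each), and each overlapped between groups in TPM. In edgeR's diffSpliceDGE, 0 of the 8 genes had a Simes adjusted p under 0.05 for transcript usage, with 1 at an unadjusted p under 0.05, against 1.59% of 10705 genes called. The lowest adjusted p of the 8 was 0.652, for ALKBH8 (0.417 with the replicate block).

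Genes of the same pathways outside the TRMT112 group were compared next. Of 71 such genes in 6 lists, edgeR called 0 with or without the replicate block, and 4 had an unadjusted p under 0.05 (14 with the block). These are 5.63% and 19.7% of the list genes, against 11.4% and 20.5% of all genes. DESeq2 called 0, with 4 at an unadjusted p under 0.05, and limma-trend called 0 of 68, with 2. The median log2 fold change over the 71 was 0.02, against 0.00 over all genes. By CPM, 8 of the 71 lay higher and 1 lower in siDDX5 without overlap, where 8.87% and 9.16% of all genes did.

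The 30 other tRNA methyltransferase genes had a median of 0.05 and ran from -0.25 (TRMT10B) to 0.41 (TYW3, a wybutosine synthesis enzyme). TYW3 had the smallest p of that list (SE 0.12, adjusted p 0.236 in edgeR), with 62.7 to 78.3 CPM in control and 89.1 to 102 CPM in siDDX5 libraries. Among 11 cytosolic rRNA modification genes the median was 0.04, from -0.19 (NAT10, the rRNA cytidine acetyltransferase) to 0.41 (THUMPD1, the adaptor that serves NAT10 on tRNA). THUMPD1 had 76.3 to 94.8 CPM in control and 103 to 127 CPM in siDDX5 libraries (edgeR adjusted p 0.253; 0.0562 with the replicate block). The 10 wobble uridine genes, which act before ALKBH8, had a median of 0.00, from -0.27 (CTU2) to 0.34 (MOCS3), and the smallest p was that of URM1 (log2 fold change 0.28, edgeR adjusted p 0.511).

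Translation termination genes, which include the gene of the N6AMT1 substrate eRF1, numbered 4 with a median of 0.16, from 0.02 (GSPT2) to 0.36 (ABCE1). ABCE1, the ribosome recycling factor, had the smallest p of these (edgeR adjusted p 0.294). The 8 genes of the S-adenosylmethionine cycle, which supplies the methyl donor, had a median of -0.08, from -0.30 (MTR) to 0.84 (MAT1A). MAT1A had the smallest p there at a very low level, 0.35 to 0.74 CPM in control and 0.741 to 1.19 CPM in siDDX5 libraries (edgeR adjusted p 0.444). For the 8 ALKBH-family genes other than ALKBH8 the median was 0.00, from -0.29 (ALKBH6) to 0.30 (ALKBH1), and ALKBH1 had the smallest p (edgeR adjusted p 0.475).

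The genes whose log2 CPM followed TRMT112 most closely over the 6 libraries were CMTR1, which methylates the mRNA cap, MED15, a Mediator subunit, and AKT1S1, a regulator of mTOR complex 1. Pearson's r was 0.997, 0.996 and 0.992, the highest of 10743 protein-coding genes that averaged 5 CPM or more. The 6 libraries form 2 groups that TRMT112 separates, so a difference in the same direction goes far towards a high r. DDX5, lower in siDDX5 without overlap, had an r of 0.932. Values as high as those of the 3 genes also require like differences within the groups, and no p is given. CMTR1 had 59.1 to 64.1 CPM in control and 46.2 to 51.5 CPM in siDDX5 libraries, MED15 116 to 123 and 89.7 to 102 CPM, and AKT1S1 54.1 to 56.0 and 35.3 to 42.0 CPM. None was called in edgeR without the block (adjusted p 0.243, 0.248 and 0.085). With the replicate block AKT1S1 was called (log2 fold change -0.55, adjusted p 0.0175), as it was in DESeq2 (0.00334), and CMTR1 and MED15 were not called with the block (0.0689 and 0.0681). Choosing genes that follow TRMT112 over these libraries favours such calls, so they are descriptions only.

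A sequence word was looked up last. The word GACGCCA, chosen because some genes lower in siDDX5 cells were already known to hold it, was present in the most abundant protein-coding transcript of 12 of the 17 genes called lower, 0 of the 8 called higher and 10.01% of 13992 genes examined. DDX5 itself holds it in that transcript and is one of the 12. Because the word was chosen from genes lower in these data, nothing is read from the difference between these shares. The sequence of the silencing RNA is not in the labels, and its relation to the word was not tested. None of the 6 annotated TRMT112 transcripts holds the word. Over all annotated transcripts it was found in 1 of the 8 genes, BUD23, and in 13.9% of 15211 tested genes. The count is of these letters on the transcript strand, and its part in the values was not tested.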

How the data were processed

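Transcript tables of 6 libraries were used, with groups and replicate numbers from the sample titles. The submitters' processing notes name bcl2fastq 2.20, FastQC 0.11.8, cutadapt 1.11, kallisto 0.46.0 and GRCh38, with no role or order. Per the file headers, the deposited tables hold an estimated count per transcript, not normalized, in which reads that fit several transcripts are shared out. The deposited TPM values correct for effective length, and each library's values share 1 total.

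Of 188753 transcripts, 169797 were joined to genes of GENCODE release 29 by identifier, 15321 by symbol and 890 by position between transcripts of 1 gene, and 2745 were left out. All transcripts of the 8 genes were joined by identifier. Counts were summed per gene, rounded, filtered with filterByExpr, TMM-scaled and tested with edgeR 4.0.16 (R 4.3.3) over all genes, with the group as the only term and Benjamini-Hochberg adjustment. Standard errors are the fold change over the square root of F, and intervals use the fit's degrees of freedom. The common biological coefficient of variation was 15.7%, and 10.2% with the replicate block. Fits with the replicate block were added because the deviations of each same-numbered pair correlated above 0.1. The main fit and the 6 fits without a library left this pairing out. Transcript usage was tested with diffSpliceDGE. DESeq2 1.42.0 and limma 3.58.1 were alternatives.

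The members and lists were chosen with earlier results of these data known. Named besides them were genes starting within 1 kb of a member on the opposite strand, DDX5, the 3 genes most correlated with TRMT112, the gene with the smallest p of each list where none was called, and each gene's most abundant transcript and those with at least 10% of its counts. ESRRA, SSB and STX1A were added for their overlap with a member, and the extremes of each list for its range. Tested on simulated siDDX5 against control counts in which 200 genes had a log2 change of 1, up or down, edgeR recovered 83%. It made 6 false calls, with 15023 genes tested, changed ones included. The simulated libraries were drawn independently, without the correlation of same-numbered libraries, so the 83% may not hold for the real data. Depth was 18202402 to 26156858 counts, at which 3 counts equal 0.115 to 0.165 CPM. Errors cover the spread between libraries, not the division of reads.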

Additional observations from a re-analysis of the deposited data

How the results depend on the processing

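TRMT112 was lower in all 15 alternatives, with adjusted p values from 2.90e-06 (DESeq2) to 0.227. Its call was lost with length-scaled TPM counts (-0.81) and in limma-trend with a pseudocount of 1 (-0.86) or 0.1 TPM (-0.87), so 0 of the 8 genes were then called, and in all 6 fits without one library, where it ranged from -1.01 to -0.79 and the genes called among the 8 were 0 to 0. The causes were not tested. The number of genes called over the whole table, 25, became 323 under DESeq2's Wald test (144 higher and 179 lower), 136 when no filter was set, 396 with the replicate block (174 higher and 222 lower), 2 for length-scaled TPM, 1 in either limma-trend fit, and 0 to 15 without one library (0 without control replicate 1 or siDDX5 replicate 1, where 1249 and 2043 genes had an unadjusted p under 0.05). The replicate block kept the TRMT112 call (-0.90, adjusted p 0.00711) and changed none for the partners. N6AMT1 turned to 0.0309 with length-scaled TPM counts. Without one library, BUD23 ranged from -0.0483 to 0.127, N6AMT1 from -0.126 to 0.0232, PRDX5 from -0.109 to 0.169 and DNAJC30 from -0.393 to 0.0777. Transcript usage was called for 0 of the 8 genes in the 6 fits without one library, with the replicate block and under a minimum mean of 50 counts. The control ratio of TRMT112 to its partners was 0.373 from CPM per kilobase.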
